A study of Mus musculus with 8 samples.

Results

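Tudor domain proteins are the scaffold and helper proteins of the RNA granules of germ cells, and 10 mouse genes of this family are described here: Tdrd1, Tdrd3, Tdrd5, Tdrd6, Tdrd7, Tdrd9, Tdrd12, Tdrkh, Rnf17 and Stk31. They were chosen by name. Each was read on a transcript cluster, a probe set that summarises 1 transcribed locus, whose single gene symbol on the platform was that name; all 10 genes were found, with 1 cluster each, among the 19938 genes named in this way. RNA was measured in round spermatids, which are haploid germ cells that have finished meiosis and not yet elongated, of adult C57BL/6 mice with 4 genotypes at Miwi (Piwil1), with 2 arrays per genotype. MIWI -/- animals had null alleles only, MIWI -/KI animals a knock-in allele over a null allele, MIWI +/KI animals a knock-in allele over a wild-type allele, and MIWI +/- animals a wild-type and a null allele. No group had a pair of wild-type alleles, so the comparison groups MIWI +/KI and MIWI +/- carried a single one. The labels say only KI of the knock-in allele; in the published study it encodes a MIWI protein altered in its catalytic site, and the work asked what that activity and MIWI itself do for the silencing of LINE1 retrotransposons. Spermatids were enriched on a bovine serum albumin gradient (2 to 4%), and fractions were pooled before RNA extraction. By their labels, the 2 arrays of each genotype are biological repeats. The labels do not say how many animals stand behind an array. The p-values thus reflect the spread between preparations, which may still be partly technical.

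A Tudor domain is a small fold that holds methylated arginine or lysine. In the male germ line, PIWI proteins carry arginines that PRMT5 and its partners dimethylate symmetrically, and Tudor domain proteins dock on them. This docking gathers the proteins that make and use piRNAs, the small RNAs that guide PIWI proteins to transposon transcripts, into the cement between mitochondria of spermatocytes and into the chromatoid body, the perinuclear granule of round spermatids. The arrays measured RNA and say nothing of where the proteins were or what they bound.

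Piwil1 was the check of the genotypes. Its intensity was 196 and 151 in the MIWI -/- arrays, 672 and 696 in MIWI -/KI, 680 and 749 in MIWI +/KI, and 389 and 371 in MIWI +/-. The MIWI -/- arrays lay below all the others, and the arrays with a knock-in allele lay highest. The positions of its probes were not used here, and the signal that MIWI -/- arrays still gave was not traced to an allele. Array medians were 66.6 to 71.8, the lowest value of any of the 10 Tudor domain genes was 163, and 2 arrays per genotype limit the precision of every value. Arrays of a genotype correlated at r = 0.970 to 0.995 over all clusters, and the lowest of these values belonged to the MIWI -/KI pair. All 18 round spermatid markers were measured and none was at 0; Acrv1, of the acrosome, ran from 2908 to 3957. Markers of other cells were not at 0 either. The summed intensity of 18 round spermatid markers was 22795 to 23731 in MIWI -/-, 22862 to 27039 in MIWI -/KI, 32545 to 34211 in MIWI +/KI and 37427 to 40736 in MIWI +/-. That of 17 spermatocyte markers was 8934 to 10784 in MIWI -/-, 9453 to 11480 in MIWI -/KI, 8924 to 9216 in MIWI +/KI and 9396 to 10314 in MIWI +/-. That of 11 Sertoli cell markers was 1108 to 1306 in MIWI -/-, 974 to 1305 in MIWI -/KI, 1500 to 1775 in MIWI +/KI and 1685 to 1840 in MIWI +/-. The round spermatid and Sertoli sums were thus lower without a wild-type allele, and the spermatocyte sums overlapped. Gene by gene, the round spermatid markers did not move together: in each mutant 5 of 18 fell against MIWI +/-, the chromatin proteins Prm1, Prm2, Tnp1 and Tnp2 and the kinase Tssk2, while Acr rose in MIWI -/- (log2 difference 0.77, adjusted p = 0.0208). Their median log2 difference was -0.10 in MIWI -/- (8 of 18 above 0) and -0.02 in MIWI -/KI (9 of 18 above 0). Most spermatocyte markers lay higher in MIWI -/KI than in MIWI +/KI, 15 of 17 with a median log2 difference of 0.41, where the 10 Tudor domain genes had 0.43. Between arrays without and with a wild-type allele 14 of 17 spermatocyte markers were above 0 with a median of 0.18, where the Tudor domain genes had 0.24. In these 2 comparisons the medians of 6 Leydig cell markers were 0.54 and 0.44, with 5 of 6 above 0 in each and none called. Those of 7 blood and macrophage markers were 0.32 and 0.07, of 14 spermatogonia markers 0.01 and 0.03, and of 10 peritubular and vascular markers 0.01 and -0.07. All 11 Sertoli markers were below 0 in each mutant against MIWI +/-, with a median of -0.31 in each. The part of these shifts in the results below was not tested, and in bulk RNA fewer cells of a type and less RNA per cell cannot be told apart.

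Within the family, Tdrd1 stood apart. Tdrd1 rose 5.86-fold in MIWI -/- and 6.06-fold in MIWI -/KI against MIWI +/-, and Tdrd9 rose 1.53-fold in MIWI -/- and 1.66-fold in MIWI -/KI. No other member passed the test in these comparisons, which share the MIWI +/- arrays, and none was called lower in any comparison. Calls were made with limma on log2 intensity, two-sided, at an adjusted p under 0.05 over all 35512 clusters. In MIWI -/- against MIWI +/-, 2 of 10 members rose, against 2.21% of all clusters that rose and 4.73% called in either direction. In the MIWI -/KI comparison with MIWI +/-, 2 of 10 rose, against 2.6% of clusters that rose and 4.87% called either way. Between MIWI -/KI and MIWI +/KI, 1 of 10 rose, Tdrd1, against 0.943% of clusters. Between the 4 arrays without and the 4 with a wild-type allele, 2 of 10 rose, against 3.61% of clusters that rose and 6.46% called either way. No member was called in MIWI +/KI against MIWI +/- (0.0648% of clusters called), in MIWI -/KI against MIWI -/- (0%), or in the difference between the effects of the wild-type allele beside a knock-in and beside a null allele (0.00282%). At an unadjusted p under 0.05 these last 3 comparisons held 2 of 10 members (11.7% of clusters), 0 of 10 (4.5%) and 2 of 10 (11.8%). By the same measure MIWI -/- against MIWI +/- held 2 of 10 (15.7%) and MIWI -/KI against MIWI +/- 4 of 10 (15.8%). For MIWI -/KI against MIWI +/KI it was 6 of 10 (16.2%), and between arrays without and with a wild-type allele 5 of 10 (17.9%). The median log2 difference over the 10 members was 0.12 for MIWI -/- against MIWI +/-, where that of all clusters was 0.01, and 0.28 for MIWI -/KI against MIWI +/-, where that of all clusters was 0.00.

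**Figure D1:**
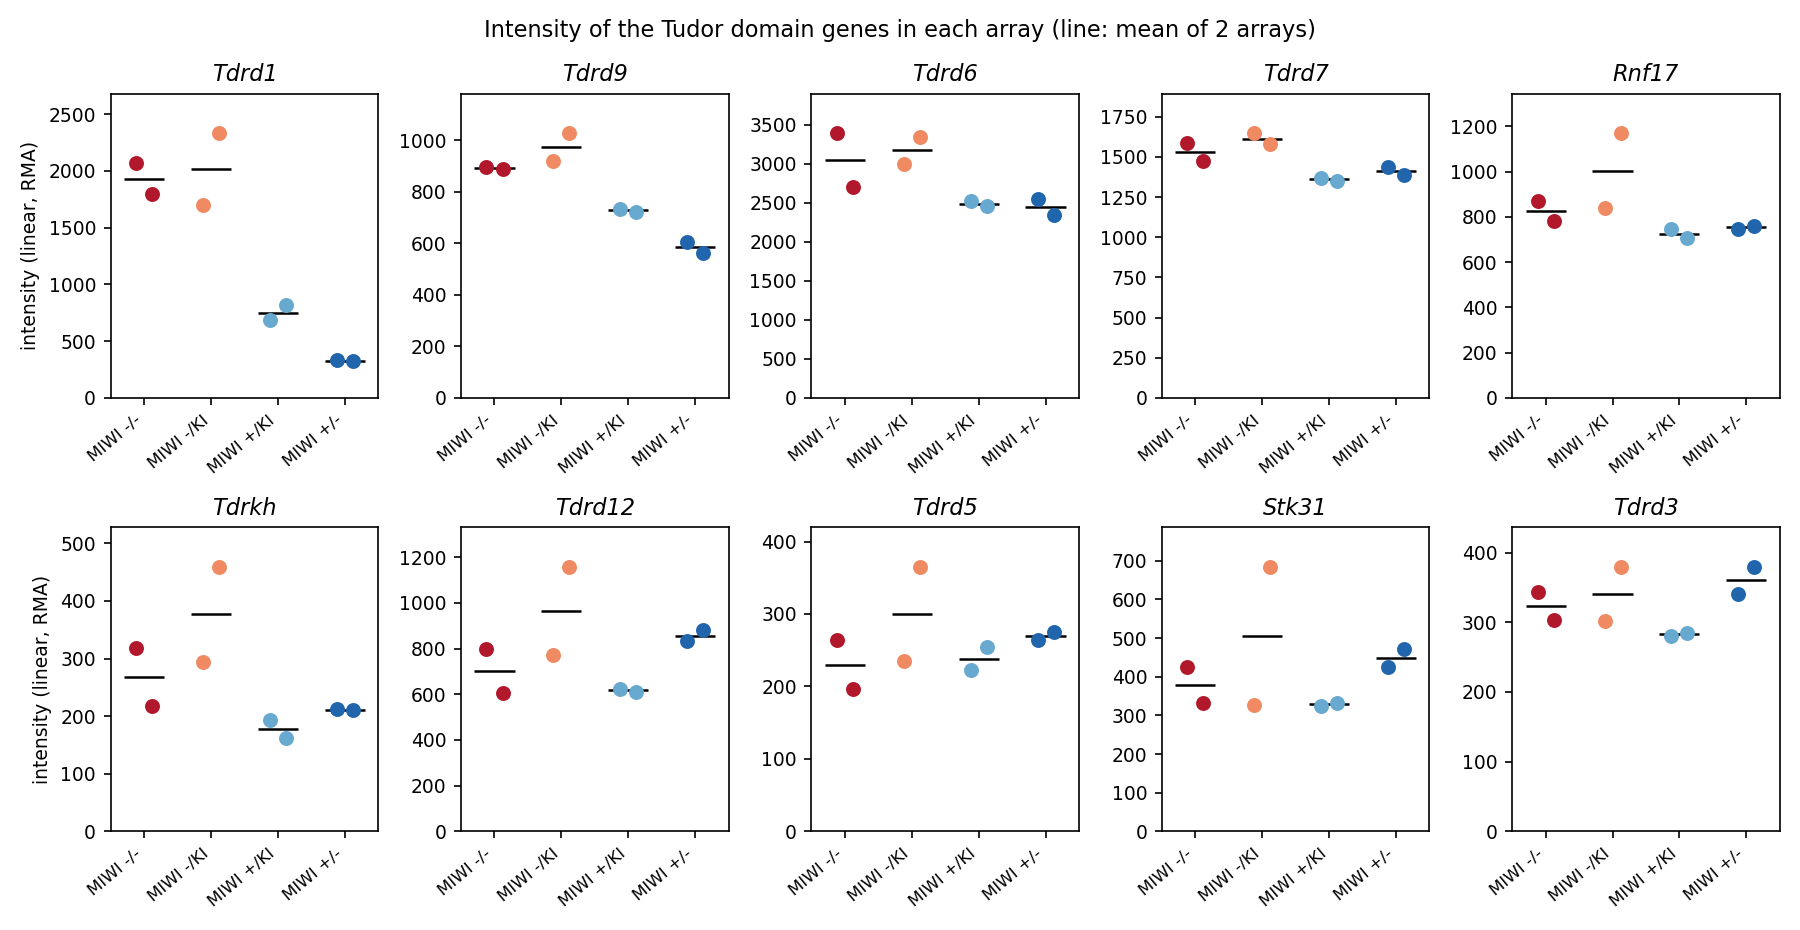
Intensity (linear scale, from 0) of each of the 10 genes in each of the 8 arrays, by genotype; each point is 1 array and each line the mean of 2 arrays, and every panel has its own scale. Tdrd1 lies at 1699 to 2332 in the 4 arrays without a wild-type allele, at 682 and 820 in MIWI +/KI and at 332 and 326 in MIWI +/-, while the other genes span at most 2.82-fold over the 8 arrays.

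TDRD1 is a protein with several Tudor domains that binds MILI, the product of Piwil2, and is needed for LINE1 silencing in the male germ line. Tdrd1 (cluster 10464171) had intensities of 2067 and 1795 in MIWI -/-, 1699 and 2332 in MIWI -/KI, 682 and 820 in MIWI +/KI, and 332 and 326 in MIWI +/-. The groups without a wild-type allele overlapped each other and lay above every other array, and MIWI +/KI lay between them and MIWI +/-. Mean intensity was 1931 ± 192 in MIWI -/-, 2015 ± 447 in MIWI -/KI, 751 ± 97.5 in MIWI +/KI and 329 ± 4.25 in MIWI +/- (SD, n = 2 each). Against MIWI +/-, the log2 difference was 2.55 in MIWI -/- (SE 0.18, adjusted p = 0.000260) and 2.60 in MIWI -/KI (SE 0.18, adjusted p = 0.000322). Every alternative left both calls in place, with log2 differences of 2.45 to 2.72 in MIWI -/- and 2.37 to 2.83 in MIWI -/KI over 20 settings each.

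With a knock-in allele on both sides, Tdrd1 was 2.66-fold higher in MIWI -/KI than in MIWI +/KI (log2 difference 1.41, SE 0.18, adjusted p = 0.0118). The call did not hold when MIWI +/KI replicate 1 (adjusted p = 0.165) or replicate 2 (0.0874) was left out, or when the fit held these 4 arrays alone (0.0746). Between the genotypes with a wild-type allele, both MIWI +/KI arrays lay above both MIWI +/- arrays, by 2.28-fold (log2 difference 1.19, 95% interval 0.76 to 1.61, unadjusted p = 0.000197). The adjusted p was 0.0886, so the difference missed the threshold, and it passed with array weights (adjusted p = 0.00477), with only these groups in the fit (0.0154) and with dim clusters, those below the median of mean intensity, left out (0.0321). The main fit took a shared spread for all genotypes. The weights were equal within each genotype (2.74 in MIWI +/KI, 1.36 in MIWI +/-, 0.778 in MIWI -/- and 0.344 in MIWI -/KI). Weights and the limited fit both lean on the spread of these groups, so they are not separate checks. Whether the effect of the wild-type allele depended on its partner was tested as the difference between the 1.41 and the 2.55 above. That was -1.14 on the log2 scale (SE 0.26, unadjusted p = 0.00234), with an adjusted p of 0.152. MIWI -/KI and MIWI -/- did not differ beyond their spread in Tdrd1 (log2 difference 0.05, 95% interval -0.38 to 0.47).

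TDRD9 is an RNA helicase with a Tudor domain that works with MIWI2, the product of Piwil4, in the silencing of LINE1. Tdrd9 (cluster 10398759) had intensities of 897 and 888 in MIWI -/-, 917 and 1026 in MIWI -/KI, 732 and 722 in MIWI +/KI, and 603 and 563 in MIWI +/-. The order of the genotypes was that of Tdrd1 in a smaller range: the arrays without a wild-type allele lay highest, MIWI +/KI next and MIWI +/- lowest, with no overlap between these 3 levels. Mean intensity was 892 ± 5.93 in MIWI -/-, 972 ± 77.2 in MIWI -/KI, 727 ± 7.41 in MIWI +/KI and 583 ± 28.2 in MIWI +/- (SD, n = 2 each). The log2 difference against MIWI +/- was 0.61 in MIWI -/- (SE 0.13, adjusted p = 0.0382) and 0.74 in MIWI -/KI (SE 0.13, adjusted p = 0.0182). The difference of 0.42 from MIWI +/KI in MIWI -/KI was not called (adjusted p = 0.167), nor that of 0.32 between MIWI +/KI and MIWI +/- (adjusted p = 0.398). The size of the Tdrd9 difference varied little over 20 settings, from 0.57 to 0.66 in MIWI -/- and from 0.65 to 0.82 in MIWI -/KI, but its calls did not always hold. In MIWI -/- the adjusted p became 0.0963 and 0.133 without MIWI -/- replicates 1 and 2, 0.130 with either MIWI +/KI array left out (which leaves the difference itself at 0.61), and 0.183 and 0.278 without MIWI +/- replicates 1 and 2. For MIWI -/KI it became 0.0715 and 0.0718 without MIWI +/KI replicates 1 and 2, and 0.120 and 0.167 without MIWI +/- replicates 1 and 2.

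TDRD12, a helicase relative that binds PIWI proteins and is needed for piRNAs carried by MIWI2, gave another picture. Tdrd12 had intensities of 798 and 604 in MIWI -/-, 771 and 1158 in MIWI -/KI, 625 and 611 in MIWI +/KI, and 833 and 879 in MIWI +/-. Both MIWI -/- arrays lay below both MIWI +/- arrays, and the MIWI -/KI arrays lay on either side of them. The log2 difference against MIWI +/- was -0.30 in MIWI -/- (95% interval -0.80 to 0.20, adjusted p = 0.651) and 0.14 in MIWI -/KI (-0.36 to 0.64, adjusted p = 0.862). For MIWI -/KI against MIWI +/KI it was 0.61 (adjusted p = 0.214), and for MIWI +/KI against MIWI +/- it was -0.47 (95% interval -0.97 to 0.03, adjusted p = 0.468). The sign of the Tdrd12 difference thus depended on which genotypes were compared, and none was called; with only the 4 arrays of MIWI +/KI and MIWI +/- in the fit, the fall of 0.47 in MIWI +/KI passed (adjusted p = 0.0362).

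Next come the genes that act while piRNAs are being made. TDRKH, which sits on mitochondria and binds PIWI proteins while the ends of piRNAs are trimmed, had intensities for Tdrkh of 319 and 217 in MIWI -/-, 295 and 459 in MIWI -/KI, 194 and 163 in MIWI +/KI, and 213 and 210 in MIWI +/-. All arrays without a wild-type allele lay above all with one, but the lowest of them, at 217, was close to the highest of the others, at 213. Against MIWI +/-, the log2 difference was 0.32 in MIWI -/- (SE 0.26, adjusted p = 0.720) and 0.80 in MIWI -/KI (SE 0.26, adjusted p = 0.160). MIWI -/KI exceeded MIWI +/KI by 2.07-fold (log2 difference 1.05, adjusted p = 0.0946), the largest difference among the members that missed the threshold in that comparison. Without MIWI -/KI replicate 1, which leaves the higher array alone in its group, Tdrkh passed against MIWI +/- (adjusted p = 0.0333) and MIWI +/KI (0.0233). It also passed against MIWI +/KI with dim clusters left out (adjusted p = 0.0403). A pass against MIWI +/- with a term for the side of the second principal component (adjusted p = 0.0101) is no test of Tdrkh. That term came from these same data and was set only by the replicate gaps within MIWI -/- and MIWI -/KI.

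RNF17 is a RING finger protein with Tudor domains that restrains piRNA amplification in meiotic cells and is needed for spermatids to mature. Rnf17 had intensities of 871 and 779 in MIWI -/-, 837 and 1170 in MIWI -/KI, 745 and 705 in MIWI +/KI, and 745 and 762 in MIWI +/-. The highest array with a wild-type allele, at 762, lay just under the lowest array without one, at 779. The log2 difference against MIWI +/- was 0.13 in MIWI -/- (95% interval -0.28 to 0.54) and 0.39 in MIWI -/KI (-0.01 to 0.80), with an adjusted p of 0.884 in MIWI -/- and 0.338 in MIWI -/KI. Rnf17 passed in MIWI -/KI only without MIWI -/KI replicate 1, among the alternatives run (adjusted p = 0.0306 against MIWI +/- and 0.0291 against MIWI +/KI).

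The chromatoid body proteins TDRD6, TDRD7 and TDRD5 follow. TDRD6 binds MIWI and is needed for the architecture of the chromatoid body and for spermatid elongation. Tdrd6 had intensities of 3394 and 2700 in MIWI -/-, 3003 and 3341 in MIWI -/KI, 2519 and 2459 in MIWI +/KI, and 2554 and 2345 in MIWI +/-. The arrays without a wild-type allele lay above those with one, without overlap. Against MIWI +/-, the log2 difference was 0.31 in MIWI -/- (adjusted p = 0.323) and 0.37 in MIWI -/KI (adjusted p = 0.207). The log2 difference between the 4 arrays without and the 4 with a wild-type allele was 0.33 (SE 0.09, 95% interval 0.11 to 0.55, adjusted p = 0.0934). It passed in that comparison with dim clusters left out (adjusted p = 0.0450). A pass with a term for the second principal component (adjusted p = 0.0266) is no test of Tdrd6. That term was set only by the replicate gaps within MIWI -/- and MIWI -/KI. Without MIWI -/- replicate 2 the log2 difference was 0.41.

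TDRD7, with LOTUS and Tudor domains, takes part in the remodelling of the chromatoid body. Tdrd7 had the narrowest range of the family, with 1585 and 1474 in MIWI -/-, 1647 and 1578 in MIWI -/KI, 1370 and 1348 in MIWI +/KI, and 1434 and 1385 in MIWI +/-. The arrays without a wild-type allele again lay above those with one. Against MIWI +/-, the log2 difference was 0.12 in MIWI -/- (95% interval -0.14 to 0.38) and 0.19 in MIWI -/KI (-0.07 to 0.45). It was 0.18 on the log2 scale between arrays without and with a wild-type allele (SE 0.08, adjusted p = 0.284).

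TDRD5, also with LOTUS and Tudor domains, is needed for chromatoid body assembly and LINE1 silencing. Tdrd5 had intensities of 264 and 197 in MIWI -/-, 235 and 365 in MIWI -/KI, 222 and 254 in MIWI +/KI, and 264 and 275 in MIWI +/-. The MIWI -/- arrays lay below the MIWI +/- arrays, though the nearest pair, 263.8 in MIWI -/- and 264.2 in MIWI +/-, was close to equal, and the MIWI -/KI arrays lay on either side of all MIWI +/- values. Against MIWI +/-, the log2 difference was -0.24 in MIWI -/- (95% interval -0.80 to 0.31) and 0.12 in MIWI -/KI (-0.43 to 0.68).

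The remaining members are Stk31 and Tdrd3. STK31 joins a Tudor domain to a protein kinase domain and is found in the testis. Stk31 had intensities of 425 and 332 in MIWI -/-, 326 and 684 in MIWI -/KI, 325 and 332 in MIWI +/KI, and 426 and 472 in MIWI +/-. Its MIWI -/KI arrays differed by 1.07 on the log2 scale, the widest gap between replicates of any member, and the second was the highest array of all. The MIWI -/- arrays lay below the MIWI +/- arrays, by a narrow margin for the nearest pair (425.3 in MIWI -/- and 425.8 in MIWI +/-). The log2 difference against MIWI +/- was -0.25 in MIWI -/- (95% interval -0.98 to 0.47) and 0.08 in MIWI -/KI (-0.65 to 0.80), and the value in MIWI -/KI was -0.46 without its replicate 2.

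TDRD3, which is made in many tissues, reads methylated histones and works with the topoisomerase TOP3B and with the fragile X proteins, so it is a member by domain more than by germ granule. Tdrd3 had intensities of 344 and 303 in MIWI -/-, 301 and 379 in MIWI -/KI, 281 and 284 in MIWI +/KI, and 341 and 380 in MIWI +/-. The lowest arrays were those of MIWI +/KI, and the other genotypes overlapped. The log2 difference from MIWI +/- was -0.16 in MIWI -/- (95% interval -0.55 to 0.24) and -0.09 in MIWI -/KI (-0.48 to 0.30).

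**Figure D2:**
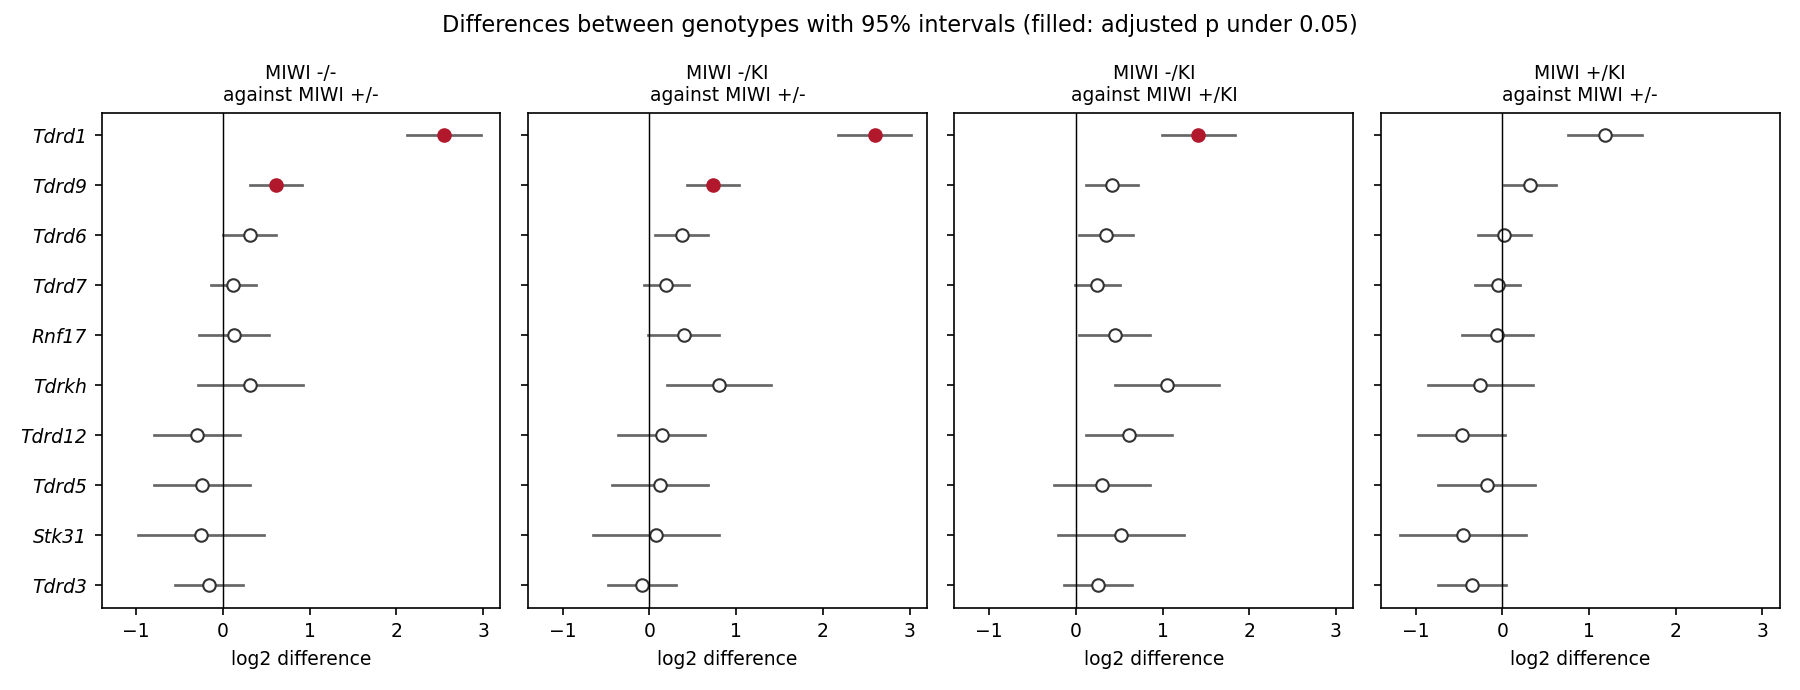
Log2 difference of each member (points) with its 95% interval (lines) in 4 comparisons of 2 genotypes; filled points passed adjusted p under 0.05 over all clusters. Tdrd1 is at 2.55, 2.60, 1.41 and 1.19 from left to right, Tdrd9 is filled in the first 2 panels, and the intervals of Tdrd5, Stk31 and Tdrd3 span 0 in every panel.

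Non-overlap of the arrays was common and is read against its background. Both MIWI -/- arrays lay above both MIWI +/- arrays for 6 of 10 members, as for 24.3% of all clusters, and below them for 3 of 10, Tdrd5, Stk31 and Tdrd12 (20.6%). Both MIWI -/KI arrays lay above both MIWI +/- arrays for 6 of 10 (21.2% of clusters), and above both MIWI +/KI arrays for 8 of 10 (23.8%). In MIWI +/KI against MIWI +/-, both arrays were higher for 2 of 10 members, Tdrd1 and Tdrd9 (28.9% of clusters), and lower for 7 of 10 (25.2%). Every array without a wild-type allele lay above every array with one for 6 of 10 members: Tdrd1, Tdrd9, Tdrd6, Tdrd7, Tdrkh and Rnf17. The share of clusters in that state was 7.79%. Such a separation by itself fixes the exact two-sided permutation p of 4 against 4 arrays at its smallest value, 0.0286, which adds nothing to the count. For the other 4 members that p was 0.657 to 0.886, and a comparison of 2 against 2 arrays cannot go below 0.333.

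A single array was the highest for most of the members. MIWI -/KI replicate 2 was the highest of the 8 arrays for 7 of 10 members (Tdrd1, Tdrd5, Tdrd9, Tdrd12, Tdrkh, Rnf17 and Stk31), as it was for 24.0% of all clusters, and it was the lowest for 29.3% of clusters. The median log2 deviation of the members from the mean of the 8 arrays was 0.52 in that array. It was lowest in the MIWI +/KI arrays, at -0.21 and -0.20, where the spermatocyte markers were also lowest, at -0.25 and -0.14. The median log2 gap between the MIWI -/KI replicates was 0.470 over the members and 0.302 over all clusters. For MIWI -/- these gaps were 0.267 and 0.191, for MIWI +/KI 0.0341 and 0.0985, and for MIWI +/- 0.0673 and 0.142. The spermatocyte markers stood apart in the same array as a list: their median deviation from the mean of the 8 arrays was 0.44 on the log2 scale in MIWI -/KI replicate 2, against -0.25 to 0.17 in the other arrays. The Sertoli markers had a median deviation of -0.47 in that array, against -0.07 to 0.35 in the others, and the round spermatid markers -0.23, against -0.07 to 0.13. Of the 17 spermatocyte markers measured, 1 rose (Piwil2) and 1 fell (Syce2) in MIWI -/KI against MIWI +/-, and the part of these lists in the members' values was not tested. Tdrd1 and Tdrd9 in MIWI -/KI against MIWI +/- stayed past the threshold without that array, with log2 differences of 2.37 (adjusted p = 0.00170) and 0.65 (adjusted p = 0.0447).

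**Figure D3:**
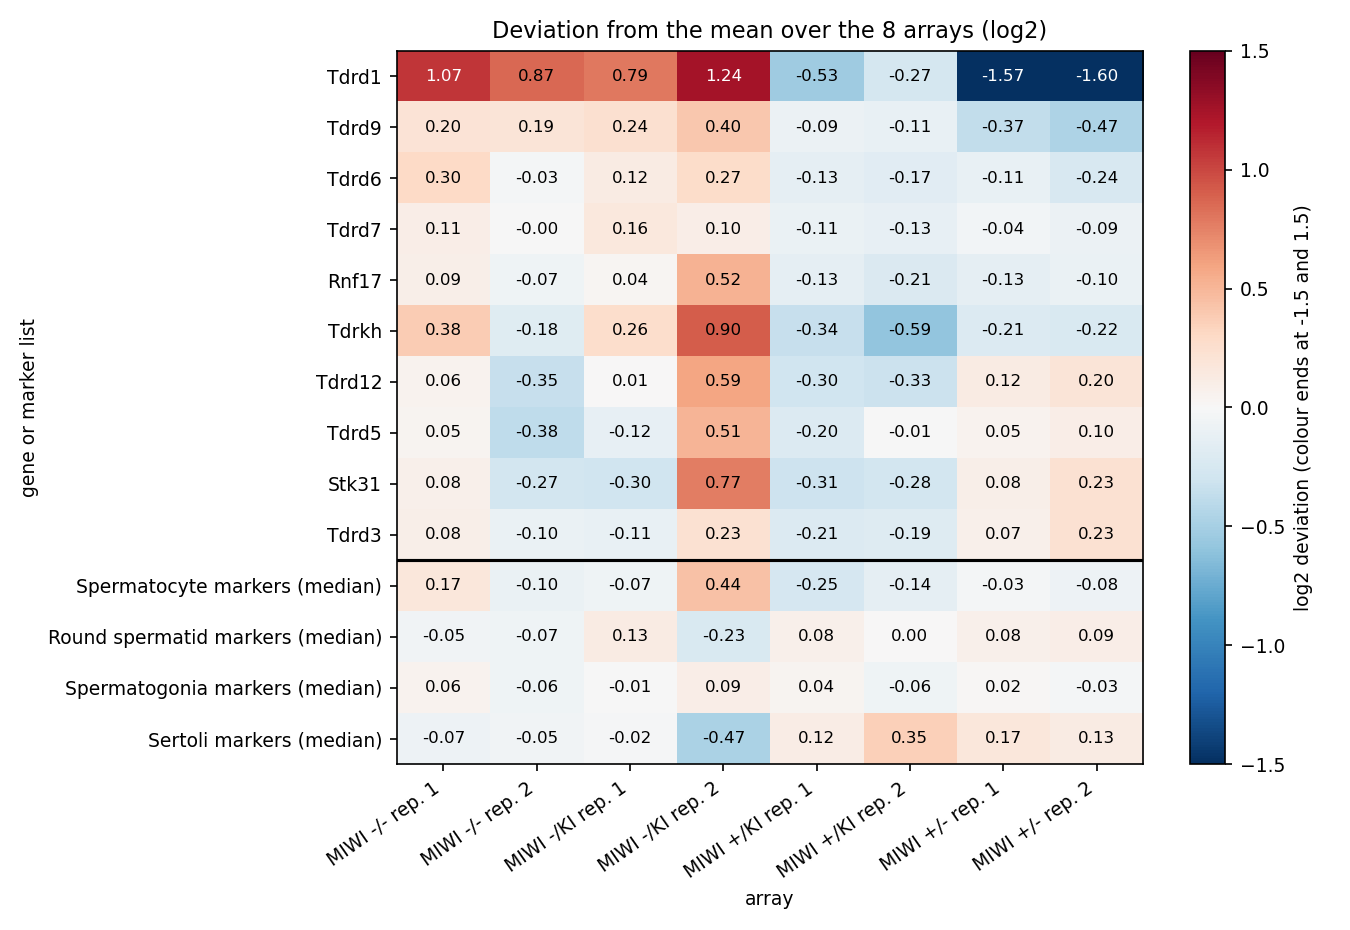
Deviation of log2 intensity from the mean over the 8 arrays for each member (upper rows) and the median deviation of 4 marker lists (lower rows), by array; red is above and blue below the mean, and the number is in each cell. Tdrd1 runs from 1.24 in MIWI -/KI replicate 2 to -1.60 in MIWI +/- replicate 2, and the column of MIWI -/KI replicate 2 is above 0 for all 10 members and for the spermatocyte markers.

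The members fell into loose groups by their profile over the 8 arrays, given here as a description since all share the same arrays. Tdrd1 and Tdrd9 correlated at r = 0.98, Tdrkh and Rnf17 at 0.96, and Tdrd12 and Stk31 at 0.93. Tdrd1 with Stk31 gave 0.10 and with Tdrd3 -0.08. Tdrd1 was the only member whose SD of log2 intensity exceeded 0.5, at 1.16. Among 879 other genes with an SD over 0.5, those nearest to Tdrd1 over the 8 arrays were Btaf1 (r = 0.997), Ankar (0.994), Map7d3 (0.994), Pkp4 (0.993) and Zfp354c (0.990). Their choice by likeness over the same arrays fixes their direction; the log2 differences from MIWI +/- were 1.09 to 1.70 in MIWI -/- and 1.13 to 1.78 in MIWI -/KI, below those of Tdrd1.

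Since Tdrd1 and Tdrd9 both rose, the promoters of the family were read. The RefSeq table, on build GRCm38.p6, held windows of 250 bases before to 50 after a transcription start for 8 of the 10 members, 14 windows in all. Windows for Tdrd6 and Rnf17 were not used here. CACGTG, a palindromic E box bound by several basic helix-loop-helix factors, was found in windows of Tdrd1, Tdrd9 and Stk31 and in 7.15% of 32851 windows of all genes. For this and the other motifs, a member counts with a match in any of its windows, up to 3, while the share is of single windows. The share is thus no measure of enrichment in the members. The windows below are printed because they hold both genes that rose and a gene with the same motif that was not called, Stk31. CACGTG is in capitals, and the strand is plus for all.
Tdrd1 (chr19:56825959-56826258): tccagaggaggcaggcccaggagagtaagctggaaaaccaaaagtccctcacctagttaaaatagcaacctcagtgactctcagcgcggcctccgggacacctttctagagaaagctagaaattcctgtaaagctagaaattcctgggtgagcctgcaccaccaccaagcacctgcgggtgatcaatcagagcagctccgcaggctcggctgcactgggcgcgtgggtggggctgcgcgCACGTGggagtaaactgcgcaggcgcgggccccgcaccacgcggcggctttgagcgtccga
Tdrd9 (chr12:111971309-111971608): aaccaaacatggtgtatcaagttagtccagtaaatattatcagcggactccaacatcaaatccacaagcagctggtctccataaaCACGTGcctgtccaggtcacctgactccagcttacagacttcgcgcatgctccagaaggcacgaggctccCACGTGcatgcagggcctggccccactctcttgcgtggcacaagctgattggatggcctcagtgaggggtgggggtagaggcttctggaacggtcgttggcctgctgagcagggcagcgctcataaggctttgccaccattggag
Stk31 (chr6:49395289-49395588): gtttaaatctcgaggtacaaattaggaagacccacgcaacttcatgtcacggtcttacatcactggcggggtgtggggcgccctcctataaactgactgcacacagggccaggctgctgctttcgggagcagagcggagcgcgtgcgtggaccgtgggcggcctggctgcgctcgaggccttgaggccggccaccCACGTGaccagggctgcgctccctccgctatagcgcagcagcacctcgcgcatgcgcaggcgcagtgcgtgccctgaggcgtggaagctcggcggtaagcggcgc

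The E box starts 11 bases before the start of the Tdrd1 transcript shown, 165 and 95 bases before that of Tdrd9, and 55 bases before that of Stk31. It was in 2 of the 3 Tdrd1 windows and both Stk31 windows, which overlap. CAGTTG, a site of MYB factors, which in mouse spermatocytes include the driver of pachytene piRNA genes, was in windows of Tdrd7 and in 13.7% of all windows. GGCGGGA, an E2F site, was in that of Tdrd3 (11.3% of all windows). TGACGT, the core of the site of CREM, was in none of the members' windows (7.51% of all). Both strands were searched, and a match is a description of the letters and no evidence of binding.

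The rest of the pathway was read from lists, by counts and medians. Against MIWI +/-, 2.21% of all clusters rose and 2.52% fell in MIWI -/-, and 2.6% rose and 2.27% fell in MIWI -/KI. The lists share genes: Piwil2 is in the piRNA pathway list, the chromatoid body list and the spermatocyte markers. Of 27 piRNA pathway genes without a Tudor domain, 23 were measured, of which 3 rose and 2 fell in MIWI -/-, and 4 rose and none fell in MIWI -/KI, against MIWI +/-. The median log2 difference was 0.05 in MIWI -/- and 0.11 in MIWI -/KI. Piwil2, the gene of the TDRD1 partner MILI, had 1099 and 1004 in MIWI -/-, 1013 and 1142 in MIWI -/KI, 628 and 662 in MIWI +/KI, and 549 and 506 in MIWI +/-. Its arrays without a wild-type allele lay above all others, and it rose by 0.99 in MIWI -/- (SE 0.14, adjusted p = 0.00585) and by 1.03 in MIWI -/KI (SE 0.14, adjusted p = 0.00545). Morc1, needed for transposon silencing in male germ cells, rose by 1.80 in MIWI -/- (adjusted p = 0.00103) and 2.07 in MIWI -/KI (adjusted p = 0.000606). Henmt1, which methylates piRNA ends, rose by 0.86 in MIWI -/- (adjusted p = 0.0188) and 0.80 in MIWI -/KI (adjusted p = 0.0248). Dnajc7, of the chaperone family, fell in MIWI -/- (log2 difference -0.70, adjusted p = 0.0412) and had -0.43 in MIWI -/KI (adjusted p = 0.202). Piwil1 itself is the other fall in MIWI -/- and the fourth rise in MIWI -/KI.

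Of 39 listed proteins of the chromatoid body and germ cell ribonucleoprotein particles, 37 were measured. In MIWI -/- 3 rose and 3 fell, and in MIWI -/KI 5 rose and 4 fell, with a median log2 difference of 0.20 in MIWI -/- and 0.19 in MIWI -/KI. Piwil2, given above, is among the rises in each mutant. Ago2, of the microRNA pathway, rose by 1.02 in MIWI -/- (adjusted p = 0.0263) and 1.17 in MIWI -/KI (adjusted p = 0.0145). Dcp1a, of the mRNA decapping complex, fell by 1.13 in MIWI -/- (adjusted p = 0.0226) and 1.08 in MIWI -/KI (adjusted p = 0.0266). Hook1, a microtubule linker of spermatids, fell by 0.94 in MIWI -/- (adjusted p = 0.00229) and 0.72 in MIWI -/KI (adjusted p = 0.00860). Xrn1, the main cytoplasmic exonuclease of mRNA, rose in MIWI -/KI (1.31, adjusted p = 0.0252) and had 0.98 in MIWI -/- (adjusted p = 0.0772). Tsks, a substrate of testis-specific kinases, fell in MIWI -/KI (-1.12, adjusted p = 0.0283) and had -0.91 in MIWI -/- (adjusted p = 0.0628). Ddx4, the VASA helicase of the chromatoid body, and Mael were picked after their values were seen: Ddx4 had log2 differences of 0.09 in MIWI -/- and 0.19 in MIWI -/KI, and Mael of -0.02 in MIWI -/- and 0.03 in MIWI -/KI, none called.

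Of 13 genes of arginine methylation, a list that holds PRMT5 and its partners and also enzymes that make other arginine marks, none was called in either mutant, and the median log2 difference was -0.03 in MIWI -/- and 0.08 in MIWI -/KI. Carm1 and Prmt6, whose products make asymmetric dimethylarginine, had the largest mean differences. Carm1 had -0.03 in MIWI -/- and -0.74 in MIWI -/KI (adjusted p = 0.148), and Prmt6 -0.34 in MIWI -/- and -0.26 in MIWI -/KI. Prmt5, picked after its values were seen, had 0.27 in MIWI -/- (adjusted p = 0.602) and 0.17 in MIWI -/KI (adjusted p = 0.767). Of the 4 binding partners of TDRD3 none was called, with a median log2 difference of 0.23 in each mutant; Fxr1 had -0.54 (adjusted p = 0.130) and Fxr2 0.47 (adjusted p = 0.112) in MIWI -/-.

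Of 27 listed Tudor domain genes outside the members, 25 were measured, and 1 rose and 1 fell in each mutant. Akap1, an anchoring protein of the outer mitochondrial membrane, had intensities of 498 and 637 in MIWI -/-, 550 and 520 in MIWI -/KI, 1062 and 999 in MIWI +/KI, and 1400 and 1381 in MIWI +/-. It stood lowest without a wild-type allele and in between in MIWI +/KI, with a log2 difference from MIWI +/- of -1.30 in MIWI -/- (SE 0.15, adjusted p = 0.00262) and -1.38 in MIWI -/KI (SE 0.15, adjusted p = 0.00233). Uhrf2, a reader of modified histones and DNA, had 273 and 231 in MIWI -/-, 260 and 341 in MIWI -/KI, 163 and 174 in MIWI +/KI, and 134 and 140 in MIWI +/-. Its arrays without a wild-type allele lay above all others, with a log2 difference of 0.87 in MIWI -/- (SE 0.18, adjusted p = 0.0359) and 1.12 in MIWI -/KI (SE 0.18, adjusted p = 0.0125). The median log2 difference over this list was 0.01 in MIWI -/- and 0.13 in MIWI -/KI.

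**Figure D4:**
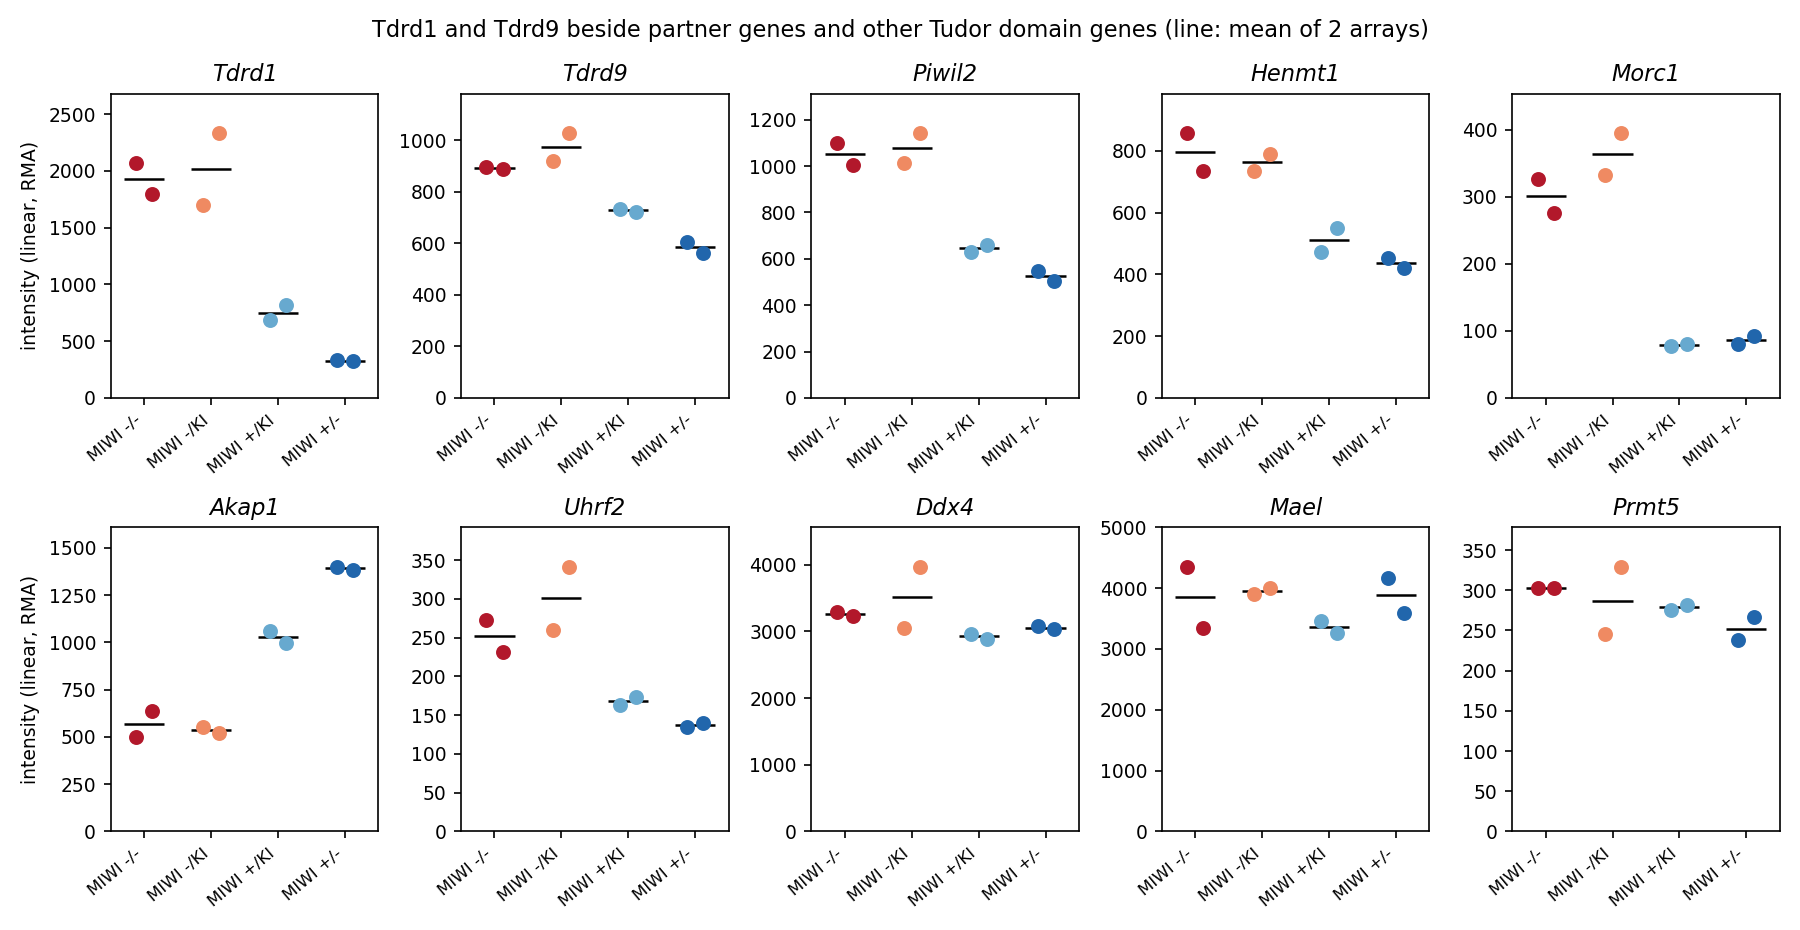
Intensity (linear scale, from 0) of Tdrd1 and Tdrd9 beside genes of the piRNA pathway, of other Tudor domain proteins and of arginine methylation in each array, by genotype; points are arrays and lines the means of 2 arrays. Piwil2, Henmt1, Morc1 and Uhrf2 are higher and Akap1 lower in the 4 arrays without a wild-type allele, and Ddx4, Mael and Prmt5 were not called.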

How the data were processed

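Total RNA of enriched round spermatids was hybridised, labelled with biotin, to 8 Affymetrix arrays, 2 for each of 4 genotypes. The deposited intensities are on a linear scale and were made with RMA, per the submitters' processing notes, with no version named. RMA corrects the background and brings arrays to a common distribution, so a shift of most transcripts would not show. Of 35512 clusters, 21789 had 1 gene symbol in the platform annotation, 1621 several and 12102 none, and 0 columns lay outside the 8 arrays. In 8 cells, 0 of them in the members, the value was whole and over 100 times its row's median on the other arrays, and was set to missing. No scan date or slide was at hand, so no batch was tested.

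From the deposited values, log2 was taken, and limma 3.58.1 in R 4.3.3 fitted 1 mean per genotype over all 8 arrays, letting the variance prior follow intensity (residual degrees of freedom 4, prior 3.98, median SE 0.178). Tests were two-sided, Benjamini-Hochberg adjusted over all clusters, in 7 comparisons that share arrays. The code was checked on simulated data. The 10 members, the gene lists, the marker lists, the motifs and the rule for named genes were chosen with earlier results of these data known, so they are no independent support. The rule named all members, Piwil1, up to 6 called genes of each list by the mean of the differences of MIWI -/- and MIWI -/KI from MIWI +/- (or 2 where none was called), and the 5 genes most correlated with any member whose SD of log2 intensity was over 0.5. Alternatives changed the variance prior, the arrays in the fit, array weights, a replicate block, a term for the second principal component, the treatment of the 8 cells, an added 16 before log2, a filter on dim clusters, the normalization and the choice of cluster, and left out each array.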

Additional observations from a re-analysis of the deposited data

How the results depend on the processing

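With 2 arrays per genotype, small differences cannot be resolved, and calls near the threshold move with single arrays. The share of all clusters called is given for the main fit only. Counts of members called under an alternative thus have no background beside them and are not a result about the family. Tdrd1 kept its direction and its call against MIWI +/- in 20 of 20 settings for MIWI -/- and 20 of 20 for MIWI -/KI, and in 17 of 20 against MIWI +/KI. Tdrd9 kept its direction in all, with log2 differences of 0.57 to 0.66 in MIWI -/- and 0.65 to 0.82 in MIWI -/KI against MIWI +/-, and its call in 11 of 20 settings in MIWI -/- and 15 of 20 in MIWI -/KI against MIWI +/-, and in 15 of 19 between arrays without and with a wild-type allele. Replicate numbers were not treated as pairs, since deviations of same-numbered arrays correlated at -0.26 to 0.30 across genotypes. The replicate block gave 1 member called in MIWI -/- against MIWI +/- (Tdrd9 lost, adjusted p = 0.0510) and changed no other call of a member. The number called in that comparison was also 1 with the fit limited to the groups compared and with arrays centred on their medians, and 1 to 2 when an array was left out. For MIWI -/KI against MIWI +/- it was 1 with only the groups compared, 4 with the term for the second principal component (adding Tdrd6 and Tdrkh), and 1 to 4 with an array left out. For MIWI -/KI against MIWI +/KI it was 0 with only the groups compared, 2 with dim clusters left out (adding Tdrkh), and 0 to 5 with an array left out. The 5 came without MIWI -/KI replicate 1, with Tdrd12, Tdrkh, Rnf17 and Stk31 added. In MIWI +/KI against MIWI +/- it was 2 with only the groups compared (Tdrd1, a rise, and Tdrd12, a fall of 0.47 on the log2 scale with adjusted p = 0.0362), and 1, Tdrd1, with array weights and with dim clusters left out. Between arrays without and with a wild-type allele it was 4 with the term for the second principal component and with dim clusters left out (adding Tdrd6 and Tdrkh), and 1 to 4 with an array left out; without Tdrd9 it was 1. Without either MIWI +/KI array its adjusted p there was 0.105 and 0.110, and without MIWI +/- replicates 1 and 2 it was 0.0645 and 0.0894.

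Sign changes, 38 in all, befell uncalled differences only. The term for the second principal component was taken from these same data, and both MIWI +/KI arrays lay on the opposite side from both MIWI +/- arrays. The term is therefore set, in every comparison, only by the replicate gaps within MIWI -/- and MIWI -/KI. Sign changes and passes with that term are thus no test of the members. With that term, the log2 difference in MIWI -/- against MIWI +/- was 0.022 for Tdrd5 and 0.10 for Stk31, and in MIWI -/KI against MIWI +/- it was 0.038 for Tdrd3. In MIWI +/KI against MIWI +/- it was 0.35 for Tdrd5, 0.026 for Tdrd12, 0.34 for Tdrkh, 0.27 for Rnf17 and 0.26 for Stk31, and the difference of differences was -0.20 for Tdrd6 and -0.0015 for Rnf17. With quantile normalization repeated, it was -0.0039 for Stk31 in MIWI -/KI against MIWI +/-, 0.0070 for Tdrd7 in MIWI +/KI against MIWI +/-, -0.034 for Tdrd3 and -0.065 for Tdrd5 between arrays without and with a wild-type allele, and -0.048 for Tdrd6 in the difference of differences. Centring gave -0.011 for Tdrd6 in MIWI +/KI against MIWI +/-. Leaving out arrays gave these ranges in MIWI -/KI against MIWI +/-: Tdrd3 -0.26 to 0.077, Tdrd5 -0.20 to 0.44, Tdrd12 -0.15 to 0.44 and Stk31 -0.46 to 0.61. Against MIWI +/KI, Tdrd5 ran from -0.014 to 0.62 and Stk31 from -0.0097 to 1.06. Between MIWI +/KI and MIWI +/-, Tdrd6 ran from -0.037 to 0.086. Between MIWI -/KI and MIWI -/-, Tdrd1 ran from -0.18 to 0.28, Tdrd3 from -0.10 to 0.23, Tdrd6 from -0.10 to 0.23 and Stk31 from -0.20 to 0.86. Between arrays without and with a wild-type allele, Tdrd3 ran from -0.032 to 0.13, Tdrd5 from -0.13 to 0.19 and Stk31 from -0.13 to 0.40, and in the difference of differences Tdrd6 ran from -0.12 to 0.21. The cause of these shifts was not tested.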
